A study of Mus musculus with 6 samples.

Results

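Genes of the lysosome and of the transcription factors that control it were followed in mDE6, a mouse cell line, sequenced with a hairpin against Arl4c (shArl4c) or with a control hairpin (shControl). The 39 genes were taken by name from a list of lysosomal hydrolases, lysosomal membrane proteins, proton pump subunits and the MiT/TFE transcription factors. All 39 were found among the 22032 genes of the deposited table, and 37 had a mean of at least 1 CPM (counts per 1e6 reads, as scaled by the authors) over the 6 libraries and were tested. Each group had 3 libraries, numbered here as in the deposited table: shArl4c 2, 3 and 4, and shControl 1, 2 and 3. Both groups are the same line and differ, as far as the labels say, in the hairpin alone. The labels give neither the tissue of origin of the line, nor whether it is 1 clone, nor whether the libraries of a group came from separate cultures, so p-values measure the spread between these libraries, which may be technical. The sample titles name the Arl4c hairpin only as shArl4c, and do not say whether the 3 libraries carry the same one. What a hairpin does through Arl4c and what it may do otherwise therefore cannot be told apart.

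The lysosome is the acidic compartment in which cells break down proteins, glycans and lipids. Its lumen holds cathepsins, glycosidases and lipases, its membrane is rich in heavily glycosylated proteins such as LAMP1 and LAMP2, and the vacuolar proton pump (V-ATPase) keeps it acidic. TFEB, TFE3 and MITF are related basic helix-loop-helix factors that bind E-box elements in the promoters of many of these genes. When mTORC1 is active on the lysosomal surface it phosphorylates TFEB and TFE3 and holds them in the cytoplasm. Much of their control is therefore not visible in their RNA. Osteoclasts, which resorb bone with cathepsin K and a dedicated V-ATPase, are among the cells that depend most on these genes.

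The libraries held 12316770 to 14976113 reads, so 1 read was worth 0.0672 to 0.0827 CPM. Arl4c, a small GTPase of the ARF family, stood at 6.75, 7.42 and 6.89 CPM in shArl4c 2, 3 and 4, against 20.7, 21.05 and 20.1 CPM in shControl 1, 2 and 3. The library shArl4c 3 stood apart from its group, as its read counts differed from those of shArl4c 2 and 4 by 5.74 and 4.87 in units of chi-square over degrees of freedom, while those of shArl4c 2 and 4 differed by 1.54. It gave the lowest value of its group in 26 of the 37 tested lysosomal genes (70.3%), and in 43.3% of all tested genes. Of markers of other cells that use these genes, 9 of 12 macrophage and leukocyte markers were listed and summed to 4.21 to 5.25 CPM in shArl4c and 4.80 to 5.98 CPM in shControl. Of 8 melanocyte markers, 4 were listed and summed to 1.61 to 2.02 CPM in shArl4c and 1.16 to 2.02 CPM in shControl. Of 10 osteoclast markers, 6 were listed and summed to 34.4 to 37.1 CPM in shArl4c and 44.1 to 46.5 CPM in shControl, most of it Nfatc1, a factor that many cell types use. The listed epithelial markers, 8 of 12, summed to 7.80 to 8.64 CPM in shArl4c and 6.13 to 7.36 CPM in shControl, most of it Trp63, a factor of basal epithelium. The 12 mesenchymal markers summed to 25261 to 25916 CPM in shArl4c and 41089 to 42600.4 CPM in shControl, most of it Col1a1, Col1a2 and Fn1. Of 11 tested markers 2 were higher (18.2%, against 18.9% of all tested genes) and 7 were lower (63.6%, against 18.0%). Vim and Twist1 did not pass. The part of these differences in the results on lysosomal genes was not tested.

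Of the lysosomal genes, Mitf was 2.30-fold higher in shArl4c, Gla rose and Ctsf fell by more than 1.5-fold, and the other changes among enzymes and pump subunits were small and in both directions. Of 37 tested genes, 11 rose, 5 fell and 21 did not pass limma's test at an adjusted p under 0.05. The 16 that passed are 43.2% of those tested, 29.7% higher and 13.5% lower in shArl4c. Over all 14740 tested genes 36.9% passed, 18.9% higher and 18.0% lower, so the share of lysosomal genes that passed was near the background, and no test was made of the difference in direction. The median log2 fold change was 0.04 over the 37 genes and 0.01 over all tested genes. Apart from Mitf, Ctsf and Gla no gene moved by more than 0.34 on the log2 scale, and 13 of the 16 that passed did so with a change under 1.5-fold. With values scaled by library total alone, 14 were higher and 3 lower (45.9% passed, against 39.1% of all tested genes). Without shArl4c 3, 14 were higher and 4 lower (48.6% passed, against 45.1% of all tested genes). In bulk RNA, fewer cells that express a gene and less RNA of it per cell cannot be told apart.

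The groups did not overlap in 21 of the 37 genes, 12 higher and 9 lower in shArl4c (56.8%, against 46.8% of all tested genes). Of these 21, 7 did not pass the test. Summed over all 39 genes, the lysosomal RNA came to 6033, 5639 and 6054 CPM in shArl4c 2, 3 and 4, against 5360.1, 5398 and 5551 CPM in shControl 1, 2 and 3. This sum was 1.09-fold higher in shArl4c, and most of the difference lay in Psap, Ctsb, Ctsd and Ctsl.

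**Figure D1:**
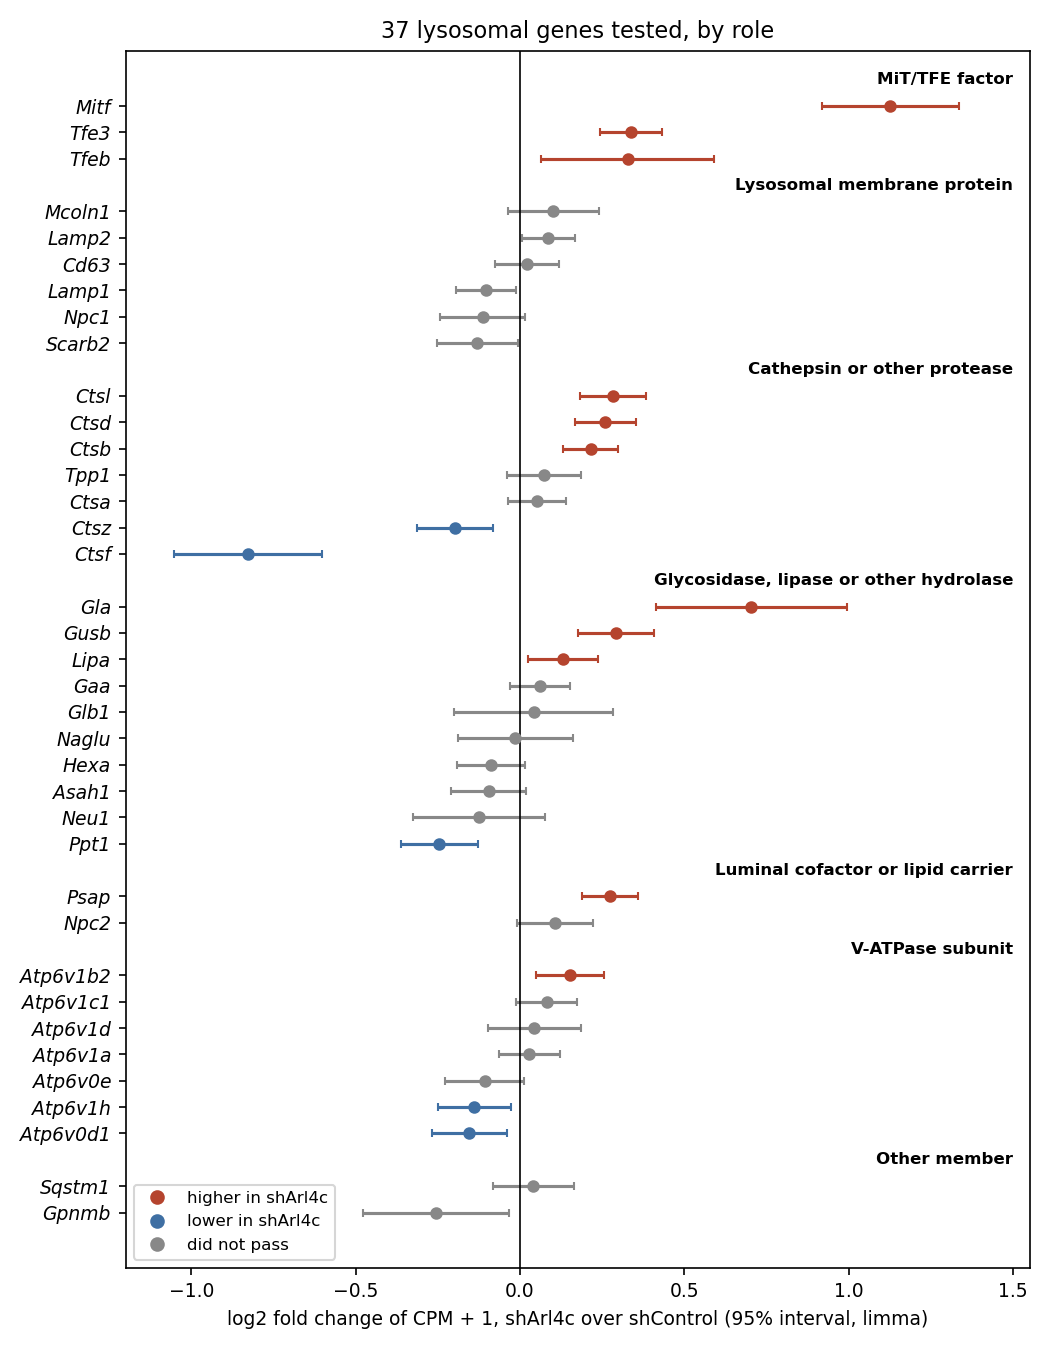
Log2 fold change of CPM + 1 (shArl4c over shControl, with 95% interval from limma) of the 37 tested lysosomal genes, in rows grouped by role and coloured by the call. Mitf at 1.13, Gla at 0.70 and Ctsf at -0.83 lie apart, and the 6 membrane proteins all lie between -0.13 and 0.10.

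All 3 MiT/TFE factors passed as higher in shArl4c, as did 18.9% of all tested genes. For Tfeb the groups overlapped and the call depended on single libraries. Mitf, best known for its role in melanocytes and osteoclasts, had 22.0, 28.3 and 23.1 CPM in shArl4c 2, 3 and 4, against 10.1, 9.95 and 11.8 CPM in shControl 1, 2 and 3. Every shArl4c library lay above every shControl library. The means were 24.5 ± 3.38 CPM in shArl4c and 10.6 ± 1.04 CPM in shControl (SD, n = 3 each), 2.30-fold higher (log2 change 1.13 with SE 0.10, adjusted p by limma = 3.09e-08). Mitf has several promoters and first exons, and the deposited values are per gene, so its isoforms were not told apart here. Of the melanocyte markers, Tyr, the pigment enzyme, had a mean of 1.19 CPM in shArl4c and 1.31 CPM in shControl, with groups that overlapped, and Dct and Pmel had 7 reads or fewer in every library.

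Tfe3, a broadly expressed member of the family, had 94.3, 92.6 and 96.5 CPM in shArl4c 2, 3 and 4, against 74.2, 75.1 and 74.2 CPM in shControl 1, 2 and 3. The libraries of each group lay close together and the groups were apart, and the rise was 1.27-fold (log2 change 0.34 with SE 0.04, adjusted p by limma = 6.04e-06). Tfeb, a master regulator of lysosome formation and autophagy, had 9.58, 11.5 and 10.9 CPM in shArl4c 2, 3 and 4, against 7.68, 7.06 and 10.3 CPM in shControl 1, 2 and 3. The library shControl 3 lay above shArl4c 2, so the groups overlapped. The log2 fold change of Tfeb was 0.33 (SE 0.13, limma adjusted p = 0.0488). That call was lost when shArl4c 3, shArl4c 4, shControl 1 or shControl 2 was left out, with limma adjusted p of 0.0651 to 0.24, and by edgeR (adjusted p = 0.0595) and DESeq2 (adjusted p = 0.153). Values of the 3 factors are not compared with each other, since CPM is not scaled by transcript length.

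**Figure D2:**
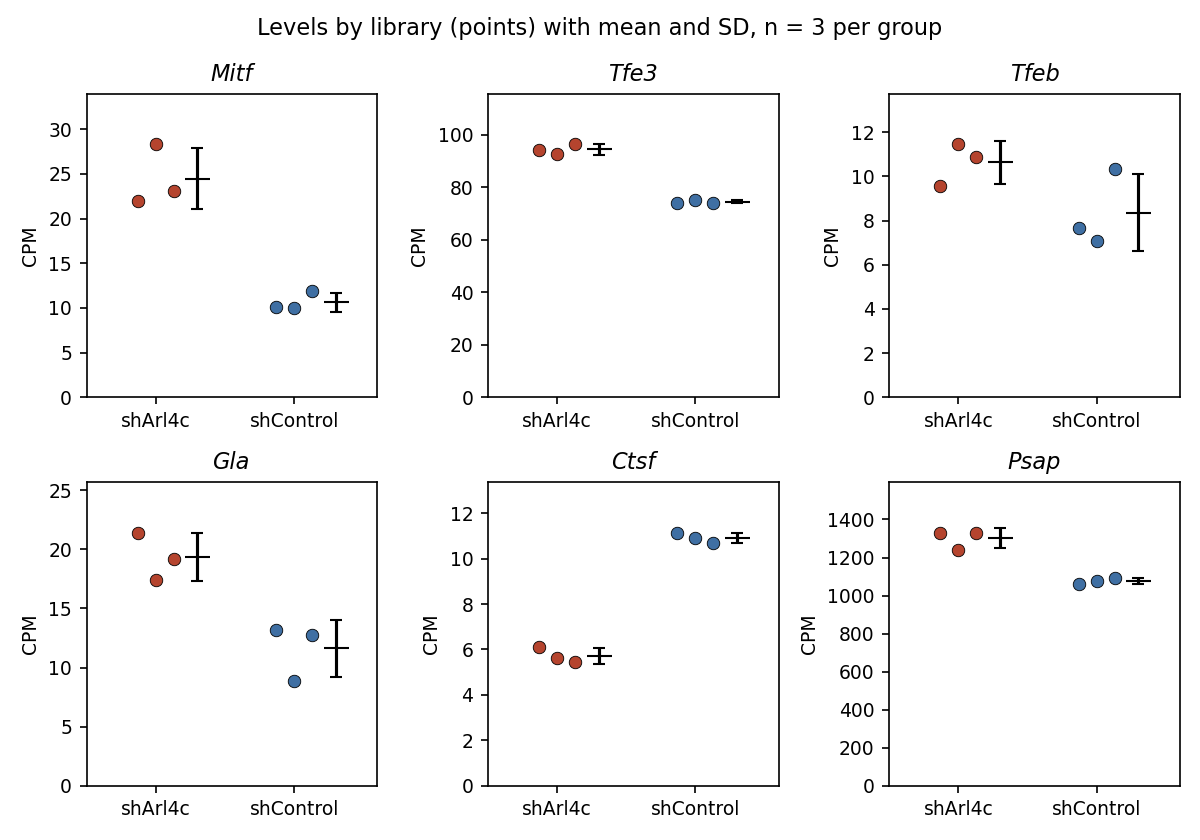
CPM of 6 genes in each library (points) with the group mean and SD (n = 3), shArl4c left of shControl, each panel with its own axis from 0. The groups are apart for Mitf, Tfe3, Gla, Ctsf and Psap and overlap for Tfeb.

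Promoters of these genes were examined for the E-box that MiT/TFE factors bind. RefSeq promoter windows on GRCm38.p6, from 250 bases before to 50 bases after each annotated gene start, were found for 33 of the 39 genes, and Ctsb, Asah1, Npc1, Atp6v1b2, Atp6v1c1 and Atp6v1h were left out. The core searched was CACGTG, which reads the same on both strands. It occurred in 13 of the 33 genes (39.4%), against 8.09% of the 27025 genes with a window and 11.8% of those tested here. The form with T before and A after the core, contained in the core matches, occurred in 7 of 33 (21.2%), against 1.12% of genes with a window and 2.19% of those tested. Of the genes with a window, the core was found for 3 of 9 that rose, 2 of 4 that fell and 8 of 18 that did not pass, counts to which no test was applied. A match describes the letters of this window and is not a measured binding site. The stretches shown here belong to genes that passed the test and to Mcoln1 and Lamp1, which did not, to set the elements of both kinds side by side. The core is in capitals, each stretch runs 5′ to 3′ on the strand of the gene, and Gla and Ctsd have 1 further core each, Mcoln1 1 and Lamp1 3.
Gla (rose), chrX:134601167-134601226, minus strand: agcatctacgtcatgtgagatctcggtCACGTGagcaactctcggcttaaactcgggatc
Ctsd (rose), chr7:142387893-142387952, minus strand: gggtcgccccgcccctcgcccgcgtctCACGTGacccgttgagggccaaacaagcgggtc
Ctsl (rose), chr13:64370724-64370770, minus strand: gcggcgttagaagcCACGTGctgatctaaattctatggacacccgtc
Ctsf (fell), chr19:4855059-4855118, plus strand: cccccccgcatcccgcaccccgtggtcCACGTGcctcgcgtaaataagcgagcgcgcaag
Atp6v0d1 (fell), chr8:105566035-105566094, minus strand: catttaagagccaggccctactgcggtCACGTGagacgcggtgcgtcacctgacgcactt
Mcoln1 (did not pass), chr8:3500447-3500506, plus strand: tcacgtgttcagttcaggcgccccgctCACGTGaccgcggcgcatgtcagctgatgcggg
Lamp1 (did not pass), chr8:13159119-13159178, plus strand: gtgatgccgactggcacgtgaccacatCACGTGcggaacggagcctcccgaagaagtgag

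The 20 cores of the 13 genes lay mostly close to the gene start, 14 of them from 100 bases upstream onward. The core shown for Gla began 194 bases before the start and that of Ctsd 98 bases before it, both with T before and A after. Those of Ctsl and Ctsf had neither letter. Lamp1 had the most cores, 4 within 61 bases of its start, and its RNA did not pass the test.

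**Figure D3:**
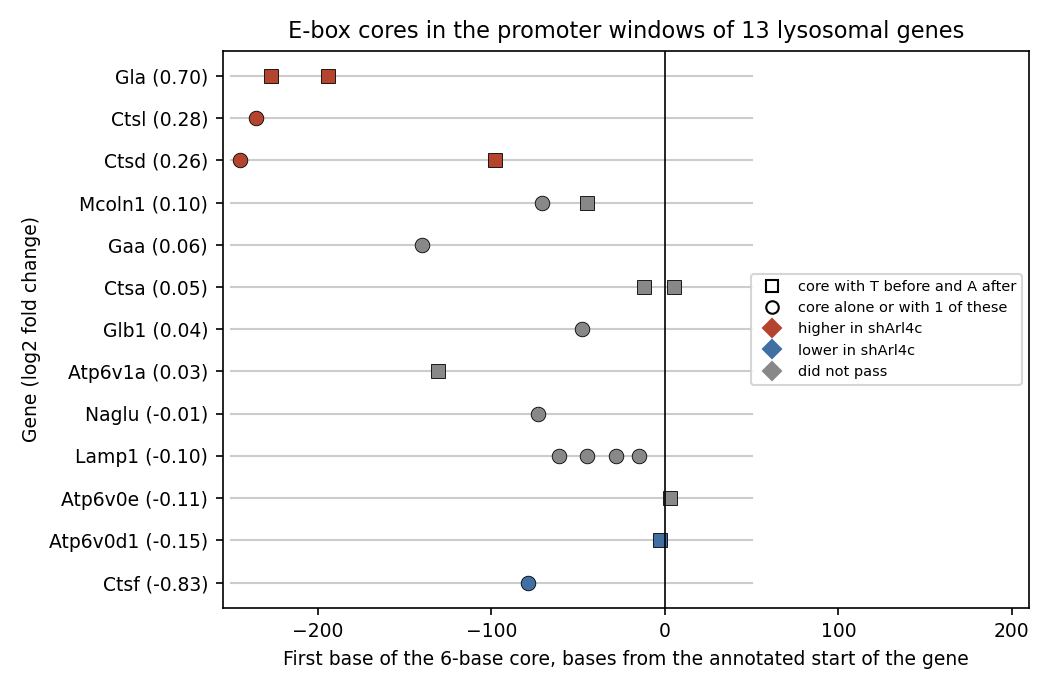
Position of each CACGTG core in the promoter windows of the 13 genes that have one, in bases from the annotated gene start (0), with genes ordered by log2 fold change and coloured by the call. Cores are present in genes at both ends of the order, Gla at 0.70 and Ctsf at -0.83, and in 8 genes that did not pass.

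Among the proteases, cathepsins B, D and L rose by small amounts, cathepsins F and Z fell, and cathepsins K and S were near 0. Ctsl, a cysteine protease, had 287, 266 and 300.4 CPM in shArl4c 2, 3 and 4, against 228, 229 and 244 CPM in shControl 1, 2 and 3, 1.22-fold higher (log2 change 0.28 with SE 0.05, adjusted p by limma = 9.57e-05). Ctsd, the main aspartic protease of the lysosome, had 317, 292 and 316 CPM in shArl4c 2, 3 and 4, against 249, 255 and 268 CPM in shControl 1, 2 and 3, 1.20-fold higher (log2 change 0.26 with SE 0.04, adjusted p by limma = 0.000116). Ctsb, a cysteine protease, had 615, 588 and 619 CPM in shArl4c 2, 3 and 4, against 515, 516 and 538 CPM in shControl 1, 2 and 3, 1.16-fold higher (limma adjusted p = 0.000257). In all 3 the groups were apart, and shArl4c 3 was the lowest of its group. In GENCODE M21 exons of Ctsb share 774 bases with Fdft1, on the opposite strand and at a mean of 70.8 CPM. Those of Ctsl share 1742 bases with Gm47123, also on the opposite strand (at a mean of 0.333 CPM). On the same strand, exons of Ctsd share 808 bases with Gm49369 and those of Ctsl 395 bases with Gm49230. These 3 values are uncertain to the extent that such reads were shared.

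Ctsf, another cysteine protease, fell the most of all the lysosomal genes. It had 6.10, 5.62 and 5.43 CPM in shArl4c 2, 3 and 4 and 11.1, 10.9 and 10.7 CPM in shControl 1, 2 and 3. The means were 5.72 ± 0.343 CPM in shArl4c and 10.9 ± 0.236 CPM in shControl (SD, n = 3 each), 1.91-fold lower (log2 change -0.83 with SE 0.11, adjusted p by limma = 4.68e-06). The libraries of each group lay within 1 CPM of each other. Ctsz, a carboxypeptidase, fell to 89.5 ± 7.57 CPM in shArl4c, against 103 ± 1.96 CPM in shControl (limma adjusted p = 0.00789), a call lost without trend and robust moderation (adjusted p = 0.0831). Ctsa, the protective protein of β-galactosidase and neuraminidase, and Tpp1, a tripeptidyl peptidase, had log2 fold changes of 0.05 and 0.07 and did not pass. Exons of Ctsa share 495 bases with Pltp, on the opposite strand and at a mean of 74.4 CPM.

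Ctsk, the collagen-degrading cathepsin of osteoclasts, had 2, 0 and 1 reads in shArl4c 2, 3 and 4 and 1, 2 and 0 reads in shControl 1, 2 and 3. Ctss, the cathepsin of antigen-presenting cells, had 3, 2 and 4 reads in shArl4c 2, 3 and 4 and 4, 2 and 1 reads in shControl 1, 2 and 3. Both were below the minimum for testing, and no comparison was made. For a library at 0 reads the upper limit is 3 reads, which is 0.225 CPM in shArl4c 3 and 0.248 CPM in shControl 3, and covers counting error only.

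Of the 10 glycosidases, lipases and other hydrolases, 3 rose, 1 fell and 6 did not pass (40% passed, against 36.9% of all tested genes). Gla, the α-galactosidase whose loss causes Fabry disease in humans, had 21.4, 17.4 and 19.2 CPM in shArl4c 2, 3 and 4, against 13.2, 8.88 and 12.7 CPM in shControl 1, 2 and 3. The lowest shArl4c library lay above the highest shControl library, though each group was spread by more than 10% of its mean. The rise was 1.67-fold (log2 change 0.70 with SE 0.13, adjusted p by limma = 0.0012). Gusb, the β-glucuronidase, had 74.9, 65.8 and 74.3 CPM in shArl4c 2, 3 and 4, against 57.1, 58.6 and 59.1 CPM in shControl 1, 2 and 3, 1.23-fold higher with groups apart (log2 change 0.29 with SE 0.06, adjusted p by limma = 0.000314).

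Ppt1, a palmitoyl-protein thioesterase, was the hydrolase of this group that fell. It had 41.0, 38.7 and 40.5 CPM in shArl4c 2, 3 and 4 and 47.1, 48.6 and 47.2 CPM in shControl 1, 2 and 3, 1.19-fold lower with groups apart (log2 fold change -0.25, limma adjusted p = 0.0016). Its exons overlap those of Cap1, on the opposite strand and at a mean of 257 CPM, over 129 bases, and the sources used here do not say how strand entered the counting. Lipa, the acid lipase, had 93.6, 91.7 and 94.9 CPM in shArl4c 2, 3 and 4 and 82.2, 82.0 and 91.8 CPM in shControl 1, 2 and 3. The library shControl 3 lay just above shArl4c 3, and the limma adjusted p of 0.0498 was lost without shArl4c 2, shArl4c 4, shControl 1 or shControl 2 (adjusted p of 0.1 to 0.217) and by edgeR (0.0678) and DESeq2 (0.176).

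The other 6 hydrolases had log2 fold changes between -0.12 and 0.06. They were Gaa, which degrades glycogen, Glb1 and Neu1, which act on galactosides and sialic acid, Hexa, Asah1, the acid ceramidase, and Naglu, which degrades heparan sulfate. For Gaa the 95% interval of the log2 fold change was -0.03 to 0.15, and without shArl4c 3 it passed at 0.10 (limma adjusted p = 0.00853). For Neu1, at 11.4 CPM in shArl4c and 12.5 CPM in shControl, the interval ran from -0.32 to 0.08.

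Psap, the precursor of the saposins that help enzymes to degrade sphingolipids, also rose. It had 1331, 1240.0 and 1330.3 CPM in shArl4c 2, 3 and 4, against 1059, 1076 and 1093 CPM in shControl 1, 2 and 3, 1.21-fold higher with groups well apart (log2 change 0.27 with SE 0.04, adjusted p by limma = 2.34e-05). Npc2, which carries cholesterol within the lumen, had means of 138 ± 11.0 CPM in shArl4c and 128 ± 5.69 CPM in shControl and did not pass, with a log2 fold change of 0.11 (limma adjusted p = 0.148). Without shArl4c 3, Npc2 was called higher at 0.17 (adjusted p = 0.00062).

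With all 6 libraries, none of the 6 lysosomal membrane protein genes passed by limma on the deposited values, by edgeR or by DESeq2. At an unadjusted p under 0.05, limma gave 1 higher and 2 lower, edgeR 2 lower and DESeq2 1 lower. Lamp1, a main glycoprotein of the lysosomal membrane, had 411, 381 and 416.8 CPM in shArl4c 2, 3 and 4, against 417.0, 435 and 446 CPM in shControl 1, 2 and 3, with a log2 fold change of -0.10 (95% interval -0.20 to -0.01, limma adjusted p = 0.0755). Lamp2, its relative, had 376, 382 and 369 CPM in shArl4c 2, 3 and 4, against 352, 351 and 359 CPM in shControl 1, 2 and 3, with a log2 fold change of 0.09 (95% interval 0.00 to 0.17, limma adjusted p = 0.093). The groups were apart for both genes, by less than 1 CPM for Lamp1, in opposite directions. With quantile normalization both passed by limma (adjusted p = 0.0452 for Lamp1 and 0.0432 for Lamp2). With values scaled by library total alone, Lamp2 passed by limma (adjusted p = 0.0125). Mcoln1, the calcium channel that activates calcineurin at the lysosome, had 35.7, 39.9 and 34.2 CPM in shArl4c 2, 3 and 4 and 34.3, 33.1 and 34.6 CPM in shControl 1, 2 and 3, with groups that overlapped (log2 fold change 0.10, 95% interval -0.04 to 0.24, limma adjusted p = 0.257).

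Cd63, a tetraspanin, Scarb2, the receptor that delivers glucocerebrosidase, and Npc1, which exports cholesterol, had log2 fold changes of 0.02, -0.13 and -0.11. The summed level of the 6 membrane protein genes was 1286, 1210.1 and 1259 CPM in shArl4c 2, 3 and 4, against 1255, 1255 and 1275 CPM in shControl 1, 2 and 3, a ratio of 0.992. Leaving out 1 library made a call in 3 of them. Without shArl4c 3, Lamp2 passed higher (adjusted p = 0.0486), without shArl4c 2, Scarb2 passed lower (0.0193), and without shControl 2, Npc1 passed lower (0.0424), all by limma.

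**Figure D4:**
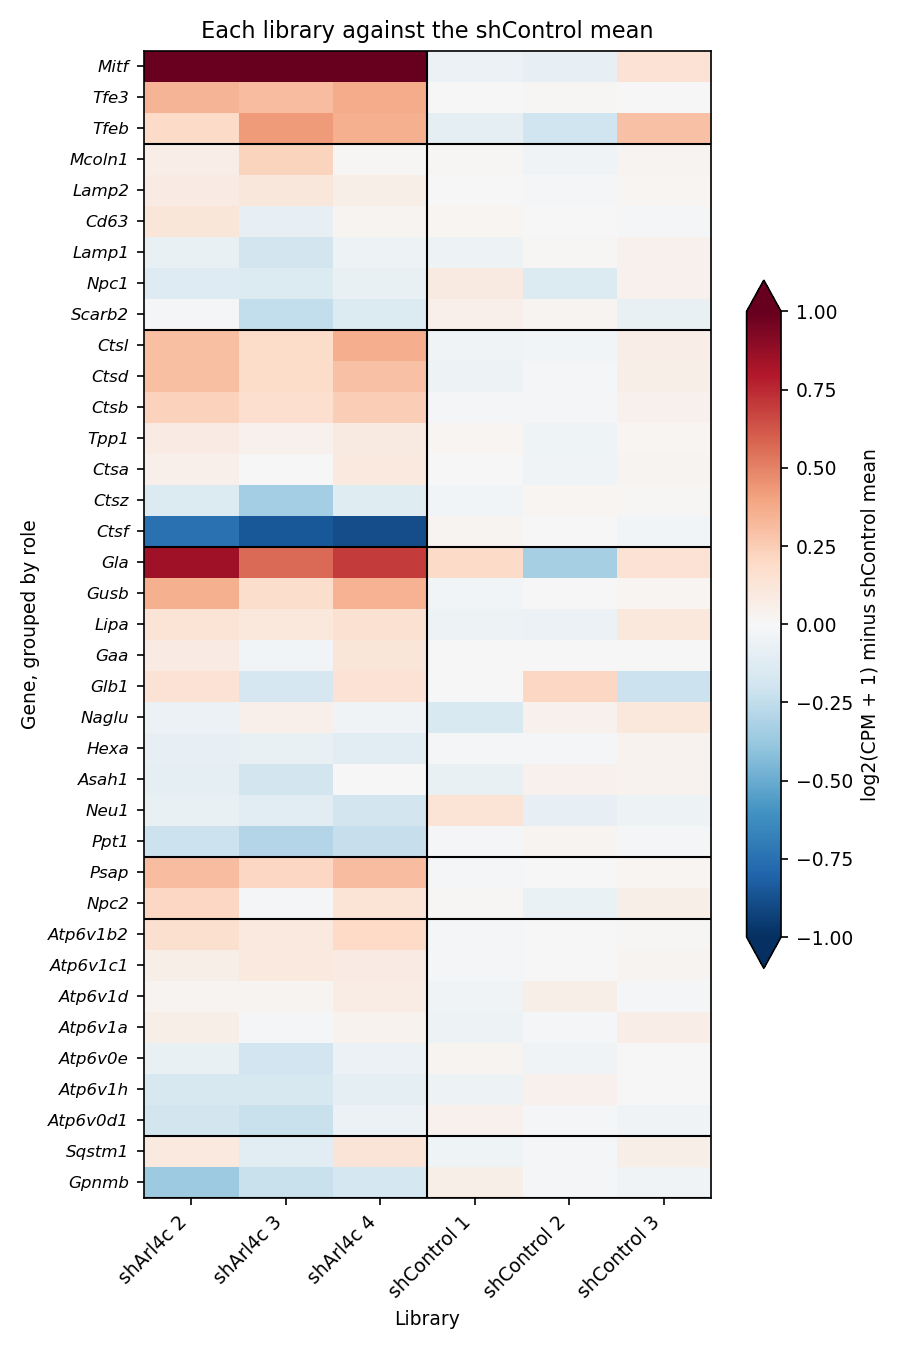
Log2(CPM + 1) of each library minus the shControl mean for the 37 tested genes, in rows by role (black lines) and shArl4c libraries left of shControl libraries, with colours capped at 1 in either direction. Mitf is at or near the cap in each shArl4c library, and shArl4c 3 is paler or bluer than shArl4c 2 and 4 in most rows of cathepsins and hydrolases.

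Of the 7 V-ATPase subunits, 1 rose, 2 fell and 4 did not pass (42.9% passed, against 36.9% of all tested genes). Atp6v1b2, a nucleotide-binding subunit of the cytosolic part, had 68.0, 65.4 and 70.1 CPM in shArl4c 2, 3 and 4, against 60.1, 61.1 and 61.6 CPM in shControl 1, 2 and 3 (log2 fold change 0.15, limma adjusted p = 0.0203). Atp6v0d1, a subunit of the membrane part, had 55.5, 54.0 and 60.7 CPM in shArl4c 2, 3 and 4, against 65.0, 62.7 and 61.6 CPM in shControl 1, 2 and 3 (log2 fold change -0.15, limma adjusted p = 0.0337). Atp6v1h, a regulatory subunit, had 47.5, 47.4 and 49.7 CPM in shArl4c 2, 3 and 4, against 51.4, 54.7 and 53.4 CPM in shControl 1, 2 and 3 (log2 fold change -0.14, limma adjusted p = 0.049). The groups were apart in all 3 genes, but none of the calls withstood the omission of single libraries. Atp6v1b2 was lost without shArl4c 2, shArl4c 4, shControl 1 or shControl 2 (limma adjusted p up to 0.104), Atp6v0d1 when any library but shArl4c 4 was left out (up to 0.142) and Atp6v1h when any of the 6 was left out (up to 0.183).

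Atp6v1c1, Atp6v1d, Atp6v1a and Atp6v0e had log2 fold changes of 0.08, 0.04, 0.03 and -0.11. The 7 subunits together came to 469 ± 11.3 CPM in shArl4c and 468 ± 6.65 CPM in shControl (SD, n = 3 each). The sums of the pump subunits differed by less than the spread between libraries.

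Sqstm1, the autophagy receptor p62, and Gpnmb, a membrane glycoprotein that MITF and TFE3 are known to induce, did not pass. Sqstm1 had 478, 414 and 488 CPM in shArl4c 2, 3 and 4, against 433, 440.0 and 465 CPM in shControl 1, 2 and 3 (log2 fold change 0.04, limma adjusted p = 0.637). The library shArl4c 3 was the lowest of all 6, and without it the log2 fold change was 0.12 (adjusted p = 0.00209). Gpnmb had 7.19, 8.02 and 8.34 CPM in shArl4c 2, 3 and 4, against 9.96, 9.41 and 9.27 CPM in shControl 1, 2 and 3, so every shArl4c library was below every shControl library (log2 fold change -0.26, limma adjusted p = 0.0679). Without shArl4c 3 that difference passed (limma adjusted p = 0.0467), in a fit where 45.1% of all tested genes passed. Any relation of Gpnmb to the levels of Mitf and Tfe3 was not tested.

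Further genes of the lysosome, in 6 lists with 143 tested genes together, were read in the same fit. Of these 22 rose, 28 fell and 93 did not pass, so 35.0% passed, close to the 36.9% of all tested genes, and their median log2 fold change was 0.01. Among 27 other hydrolases 6 rose and 6 fell (44.4% passed). The count that fell was 3 without shControl 1 or shControl 3, and DESeq2 called 3 in each direction. Man2b1, the α-mannosidase, fell 1.61-fold to 42.2 ± 1.32 CPM in shArl4c, against 68.0 ± 1.296 CPM in shControl (limma adjusted p = 3.95e-09), and Gm2a, the GM2 activator, and Ids, iduronate sulfatase, fell by 0.43 and 0.37 on the log2 scale. Lgmn, the asparagine endopeptidase that processes cathepsins, rose 1.21-fold to 83.5 ± 7.31 CPM in shArl4c, against 68.8 ± 0.749 CPM in shControl, while Galc, the galactosylceramidase, rose by 0.32 on the log2 scale.

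Of 23 other membrane proteins 4 rose and 3 fell (30.4% passed, against 36.9% of all tested genes). Only 1 fell without shArl4c 4, shControl 2 or shControl 3 and by DESeq2. Cd68, a LAMP-family protein that is abundant in macrophages, rose 2.07-fold to 5.77 ± 0.207 CPM in shArl4c, against 2.79 ± 0.397 CPM in shControl (limma adjusted p = 6.98e-05). The other macrophage and leukocyte markers gave 4.21 to 5.25 CPM in shArl4c and 4.80 to 5.98 CPM in shControl, and neither of the 2 tested markers passed. Laptm4b and Slc11a2, an iron transporter, rose by 0.37 and 0.19 on the log2 scale. Cln3 fell 1.89-fold at a low level, to 1.95 CPM in shArl4c, against 3.67 CPM in shControl (log2 fold change -0.67). Tmem175, a proton-activated channel, and Tpcn1 had log2 fold changes of -0.23 and -0.15 and fell, and both calls depended on single libraries. That of Tmem175 was lost without shArl4c 2, shArl4c 4, shControl 2 or shControl 3 (limma adjusted p up to 0.158) and that of Tpcn1 when any library but shArl4c 2 was left out (up to 0.114).

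Of 11 other V-ATPase genes 1 rose (2 without shControl 2) and 3 fell, so 36.4% passed, against 36.9% of all tested genes. Tcirg1, the a3 subunit that osteoclasts use in bone resorption, rose 1.28-fold to 75.1 ± 2.18 CPM in shArl4c, against 58.8 ± 1.79 CPM in shControl (limma adjusted p = 1.43e-05). Atp6v0a2, an alternative a subunit, fell 1.23-fold to 60.4 ± 4.70 CPM in shArl4c, against 74.5 ± 1.35 CPM in shControl (limma adjusted p = 0.000274). Atp6v1g1 and Atp6v0b both fell by 0.21 on the log2 scale.

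Genes that control TFEB and TFE3 moved in both directions, 5 of 22 higher and 5 lower (45.5% passed, against 36.9% of all tested genes). The count that rose was 3 without shArl4c 2, shControl 1 or shControl 2 and by DESeq2, and 8 without shArl4c 3. The count that fell was 3 without shControl 3. Ppp3ca, the catalytic subunit of calcineurin, which dephosphorylates TFEB, rose 1.62-fold to 217 ± 6.30 CPM in shArl4c, against 133 ± 2.23 CPM in shControl (limma adjusted p = 9.46e-11). Xpo1, the exportin that returns TFEB to the cytoplasm, rose 1.24-fold to 317 ± 2.90 CPM in shArl4c, against 255 ± 4.66 CPM in shControl, and Ywhaz, a 14-3-3 protein, rose by 0.21 on the log2 scale. Rragc, a Rag GTPase that recruits mTORC1 and TFEB to the lysosome, fell 1.29-fold to 57.3 ± 3.81 CPM in shArl4c, against 74.1 ± 2.08 CPM in shControl (limma adjusted p = 2.44e-05). Rheb, the GTPase that activates mTORC1, and Zkscan3, a repressor of autophagy genes, each fell by 0.23 on the log2 scale.

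Of 32 autophagy genes 2 rose and 7 fell (28.1% passed, against 36.9% of all tested genes). The count that rose was 4 without shArl4c 3, 1 without shControl 1 or shControl 2, and 0 by limma without shControl 3 or by DESeq2 on all libraries, where 4 and 2 were higher at an unadjusted p under 0.05. EdgeR called 2. Map1lc3a, an LC3 protein of the autophagosome membrane, fell by 0.58 on the log2 scale, to 46.8 ± 3.63 CPM in shArl4c, against 70.2 ± 4.14 CPM in shControl (limma adjusted p = 4.78e-07). Rb1cc1, a scaffold of the initiating kinase complex, fell 1.34-fold to 113 ± 5.48 CPM in shArl4c, against 152 ± 2.61 CPM in shControl, and Wipi1, which binds phosphoinositides at the forming autophagosome, fell by 0.32 on the log2 scale. The 2 that rose were Atg7 and Tax1bp1, by 0.20 and 0.14 on the log2 scale, and both calls were lost with single libraries left out. For Atg7 these were shArl4c 4 and shControl 3 (limma adjusted p up to 0.0899), and for Tax1bp1 shArl4c 2 and any shControl library (up to 0.133).

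Of 28 genes of sorting to the lysosome and of lysosome positioning, 4 rose (7 without shArl4c 3) and 4 fell. The share that passed was 28.6%, against 36.9% of all tested genes. Vps35, a core subunit of the retromer that recycles sorting receptors, fell 1.62-fold to 211 ± 11.7 CPM in shArl4c, against 342 ± 3.71 CPM in shControl (limma adjusted p = 2.31e-10). Arl8a, a GTPase that moves lysosomes along microtubules, and its effector Plekhm2 fell by 0.32 and 0.25 on the log2 scale. Plekhm1, Snapin and Gga2 rose by 0.24, 0.23 and 0.20.

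**Figure D5:**
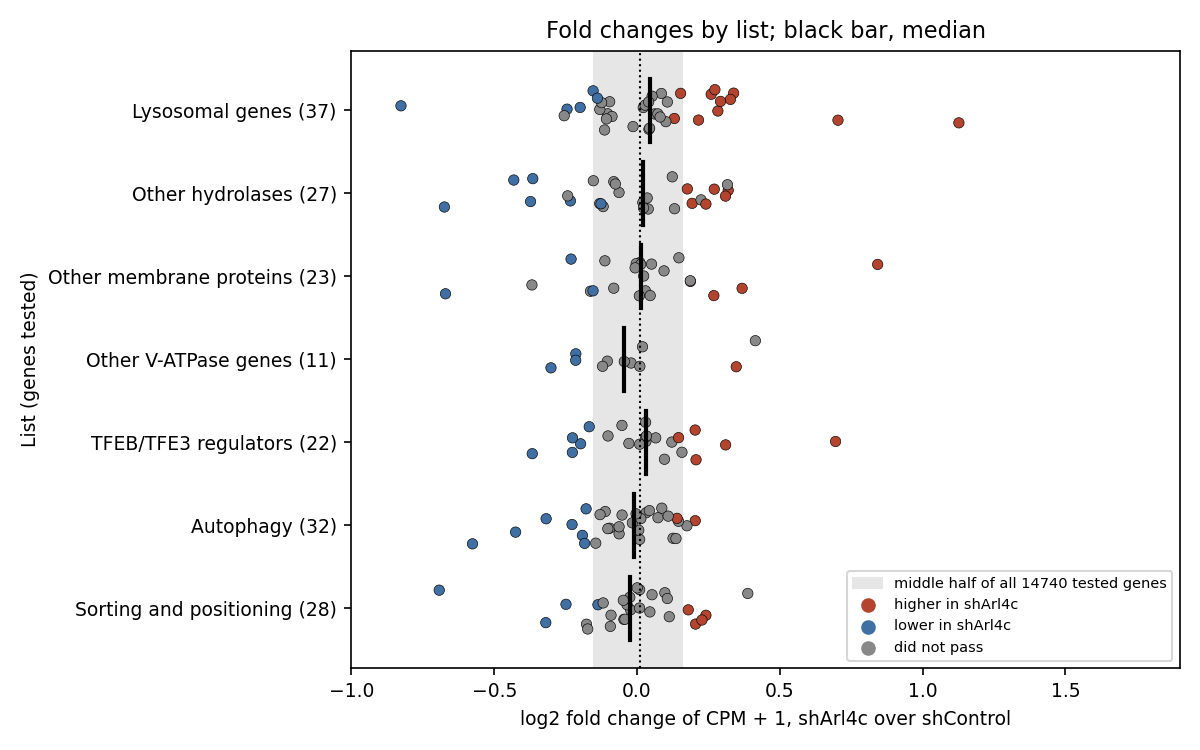
Log2 fold change of each tested gene (points, coloured by the call) in the set of 37 and in 6 further lists, with the list median (black bar), the median of all tested genes (dotted line) and their interquartile range (grey band). The list medians lie between -0.04 and 0.04, with genes that rose and genes that fell in each list.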

How the data were processed

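RNA-seq values of 6 libraries, 3 per group, were analysed. The authors deposited 1 table of CPM values per gene. Trimmomatic 0.38, RSEM 1.3.0, Bowtie2, edgeR and the build GRCm39 are named, without order or settings, per the submitters' processing notes, and libraries were made with a directional kit, per the labels' protocols. Column names other than the sample titles (shluc, and a misspelt Arl4c) were mapped to groups only. Every value (100% within 0.001 of a read) was a whole multiple of the smallest in its column, so reads were recovered. Floors cover counting error only.

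Values were taken to log2(CPM + 1), which understates changes of low genes. The 14740 genes that averaged 1 CPM or more entered limma 3.58.1 (R 4.3.3), which set shArl4c against shControl with trend and robust moderation and Benjamini-Hochberg adjustment over all tested genes. EdgeR 4.0.16 and DESeq2 1.42.0 on recovered reads, which called 5378 and 4108 genes, were alternatives, as were other pseudocounts, filters and scalings and leaving out each library. The limma step was tested on simulated counts. Symbols matched 21880 of 22032 identifiers. RefSeq promoters are on GRCm38.p6, an older build than that of the counts.

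The lysosomal genes, the lists and the naming rule were chosen with earlier results of these data known. The rule gave in full the 3 MiT/TFE factors, Mcoln1, Gpnmb, Sqstm1 and up to 4 called genes per role, and of each further list the 3 genes with the smallest p per direction, of which 1 is not reported here. Exons of 10 of the 39 genes overlap a gene on the opposite strand in GENCODE M21, and of 3 a gene on the same strand.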

Additional observations from a re-analysis of the deposited data

How the results depend on the processing

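The count of lysosomal genes that fell, 5, was 3 with plain per-million values, with limma without trend and robust moderation and with DESeq2, and 3 to 4 with each library left out in turn (3 without shControl 1 or shControl 3). The count that rose, 11, ran from 8 to 14 in the same omissions, while the share of all tested genes called higher ran from 14.8% to 23.8%. Among the 6 further lists the count that rose, 22, was 13 with DESeq2 and 17 to 31 as libraries were left out, and the count that fell, 28, ran from 18 (without shControl 3) to 29. Without trend and robust moderation the counts were 3 higher and 3 lower among the TFEB and TFE3 regulators, 1 higher among autophagy genes, 1 lower among other membrane proteins and 2 higher among other V-ATPase genes, and with plain per-million values 5 autophagy genes were higher. Of the 16 lysosomal genes called, 10 kept their call in all 16 alternatives and 6 did not (Tfeb, Lipa, Ctsz, Atp6v0d1, Atp6v1b2 and Atp6v1h), and none of the 16 changed direction. The causes were not tested. Sign changes occurred only in genes near 0 that did not pass. Naglu, at -0.014 on the log2 scale, was 0.016 with plain per-million values and 0.000696 with quantile normalization, and lay between -0.089 and 0.039 as each library was left out. In the same omissions Cd63 lay between -0.026 and 0.074, Glb1 between -0.065 and 0.15 and Sqstm1 between -0.00439 and 0.12. No paired analysis was possible because the columns of the table could be tied to a group and not to a sample's replicate number. Depth limits Ctsk and Ctss, at 0 to 4 reads per library.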
